A study of Mus musculus with 8 samples.

Results

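Transcripts of the hepatic Wnt circuit were measured by RNA sequencing in 4 alcohol and 4 control (saline) samples labelled as mouse liver. The circuit was taken as 10 genes listed by name, and all 10 were among the 21049 gene symbols measured. They comprise the ligands Wnt2 and Wnt9b, the ligand enhancer Rspo3, the receptor Lgr5, the receptor-removing ubiquitin ligases Znrf3 and Rnf43, the feedback inhibitors Axin2 and Nkd1, the transcription factor Tbx3 and the enzyme Glul. Both groups were wild type, the design text describes C57BL/6 mice with an alcohol-fed group, and the sources used here give neither the dose and length of feeding nor the age and sex of the mice. The labels also name AML12, a mouse hepatocyte line, and hepatocytes as the cell type. The samples are called liver here after the tissue label, and whether they are tissue was not tested. All 16 endothelial marker genes examined had a mean above 0.1 FPKM, and they summed to 30.5 to 47.7 FPKM in controls. All samples carry 1 batch label. Whether the 8 samples are 8 mice is not stated, and the p-values speak only to the variation among the samples, part of which may be technical.

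In the liver lobule, endothelial cells around the central vein secrete Wnt2 and Wnt9b, and central vein endothelial and stellate cells secrete Rspo3. Wnt proteins bind Frizzled and Lrp5 or Lrp6 on nearby hepatocytes and let beta-catenin enter the nucleus, where with TCF factors it turns on its targets. R-spondins bind Lgr receptors and keep Znrf3 and Rnf43 from clearing Frizzled, so they amplify the signal. Axin2, Nkd1, Znrf3 and Rnf43 are both targets and brakes of the pathway, while Glul, the glutamine synthetase, is made in the hepatocytes that border the central vein.

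Levels are in FPKM, a read count divided by the length of the gene and by the size of the library. Groups were compared with limma on log2(FPKM + 1) across the 9228 genes that averaged 1 FPKM or more, with Benjamini-Hochberg adjustment and a threshold of 0.05. Across those genes 4080 were higher (44.2%) and 1203 lower (13%) in alcohol samples, and the median log2 change was 0.24, so levels lay higher with alcohol in general. Under median-of-ratios scaling that median moved to -0.0027, with 2386 genes higher and 2446 lower, and with quantile normalization the split was 2221 and 2307. Library totals recovered from the FPKM values were 37132631 to 38407511 reads in alcohol samples and 33872595 to 34789814 reads in control samples. Alcohol replicates 2 and 4 resembled each other most within a group, with a chi-square per gene of 7.65 between their recovered reads against 38.8 to 155 for the other pairs. They still differed by more than sampling noise and were counted as 2 samples, and results were also computed with their mean as 1 sample.

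The ligand side and part of the target side were higher with alcohol, while Glul was not. Of the 10 genes 7 reached a mean of 1 FPKM, and 5 of those were higher (Wnt2, Rspo3, Axin2, Rnf43 and Tbx3), against 44.2% over all genes tested. Wnt2, Rspo3, Axin2 and Znrf3 averaged under 1 FPKM in controls and reached the minimum only through the alcohol samples. The count therefore leans towards higher calls. None of the 7 was lower in limma, at an unadjusted p under 0.05 or with voom on recovered reads, and Znrf3 and Glul did not pass the threshold. The other 3 lay under the minimum and were read from a fit of all 21049 genes, in which 24.2% of genes were higher. There Wnt9b and Nkd1 were higher and Lgr5 did not pass.

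Axin2 was the target with the largest change among the 10, Wnt9b is a ligand, and Glul a target that did not pass the threshold. The sequences just before their start sites are shown so that these 3 upstream stretches can be compared. Each is the 250 bases upstream of the start site from RefSeq, build GRCm38.p6, read 5′ to 3′ on the gene's strand, with any CTTTG or its reverse complement CAAAG, the core of the TCF motif, in capitals. The Axin2 window is chr11:108920099-108920348 on the plus strand, the Wnt9b window chr11:103749822-103750071 on the minus strand and the Glul window chr1:153899679-153899928 on the plus strand.
Axin2: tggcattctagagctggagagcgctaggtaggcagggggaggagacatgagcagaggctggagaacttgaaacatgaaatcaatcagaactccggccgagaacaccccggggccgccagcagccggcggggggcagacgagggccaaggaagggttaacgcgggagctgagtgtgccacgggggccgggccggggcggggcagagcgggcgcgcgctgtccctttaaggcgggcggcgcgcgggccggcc
Wnt9b: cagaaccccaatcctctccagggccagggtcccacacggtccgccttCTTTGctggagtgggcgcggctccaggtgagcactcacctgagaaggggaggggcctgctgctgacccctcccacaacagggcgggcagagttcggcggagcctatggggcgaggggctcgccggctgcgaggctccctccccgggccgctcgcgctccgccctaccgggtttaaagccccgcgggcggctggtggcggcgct
Glul: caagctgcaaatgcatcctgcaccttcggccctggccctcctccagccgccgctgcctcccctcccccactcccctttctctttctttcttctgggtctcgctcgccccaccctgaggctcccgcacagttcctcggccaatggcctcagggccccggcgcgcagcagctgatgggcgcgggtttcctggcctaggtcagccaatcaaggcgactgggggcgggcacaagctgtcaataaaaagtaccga
The Wnt9b window holds CTTTG once, and none was found in the windows of Axin2 and Glul or in those of Wnt2, Nkd1 and Rnf43, which are not printed. Over all 32851 RefSeq windows of that length 48.6% hold CTTTG on either strand, and 13.8% hold the longer CTTTGA or its reverse complement, which no window of these 6 genes does. Windows were found for 6 of the 10 genes, and sequence outside these windows was not searched.

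Wnt2 stood at 1.80, 2.83, 2.25 and 2.75 FPKM in alcohol samples 1 to 4, against 0.279, 0.167, 0.318 and 0.286 FPKM in control samples 1 to 4. Every alcohol sample lay far above every control. Its mean was 2.41 ± 0.481 FPKM with alcohol and 0.262 ± 0.0659 FPKM in controls (SD, n = 4 each), a ratio of 9.17 and a log2 change of 1.42 ± 0.11 (SE, limma adjusted p = 5.07e-06). These values rest on 156 to 238 recovered reads per alcohol library and 13 to 25 per control library. The log2 scale with 1 FPKM added understates the change of so low a gene, and a voom fit of the recovered reads gave a log2 change of 3.19.

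Rspo3, the R-spondin that potentiates Wnt signals in the liver, rose in the same samples. It stood at 3.83, 4.45, 3.08 and 4.19 FPKM in alcohol samples, against 0.480, 1.03, 1.05 and 0.936 FPKM in controls. The groups did not overlap, and alcohol replicate 3 was the lowest of its group. The log2 change of Rspo3 was 1.39 ± 0.13 (SE, limma adjusted p = 1.84e-05), a ratio of mean FPKM of 4.45.

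Wnt9b, the other ligand of the central vein, was the lowest of the 10 genes. It stood at 0.182, 0.620, 0.390 and 0.437 FPKM in alcohol samples, against 0.0601, 0.0812, 0.111 and 0.124 FPKM in controls, from 40 to 132 reads per alcohol library and 12 to 24 per control library. All alcohol samples lay above the controls, but alcohol replicate 1 only narrowly. Its log2 change was 0.35 ± 0.09 (SE, limma adjusted p = 0.0159 in the fit of all genes), and 2.01 with voom on recovered reads. For Wnt2, Rspo3 and Wnt9b the exact 2-sided permutation p was 0.0286, the smallest that 4 against 4 can give. Over all genes tested 39.5% had every alcohol sample above every control.

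**Figure D1:**
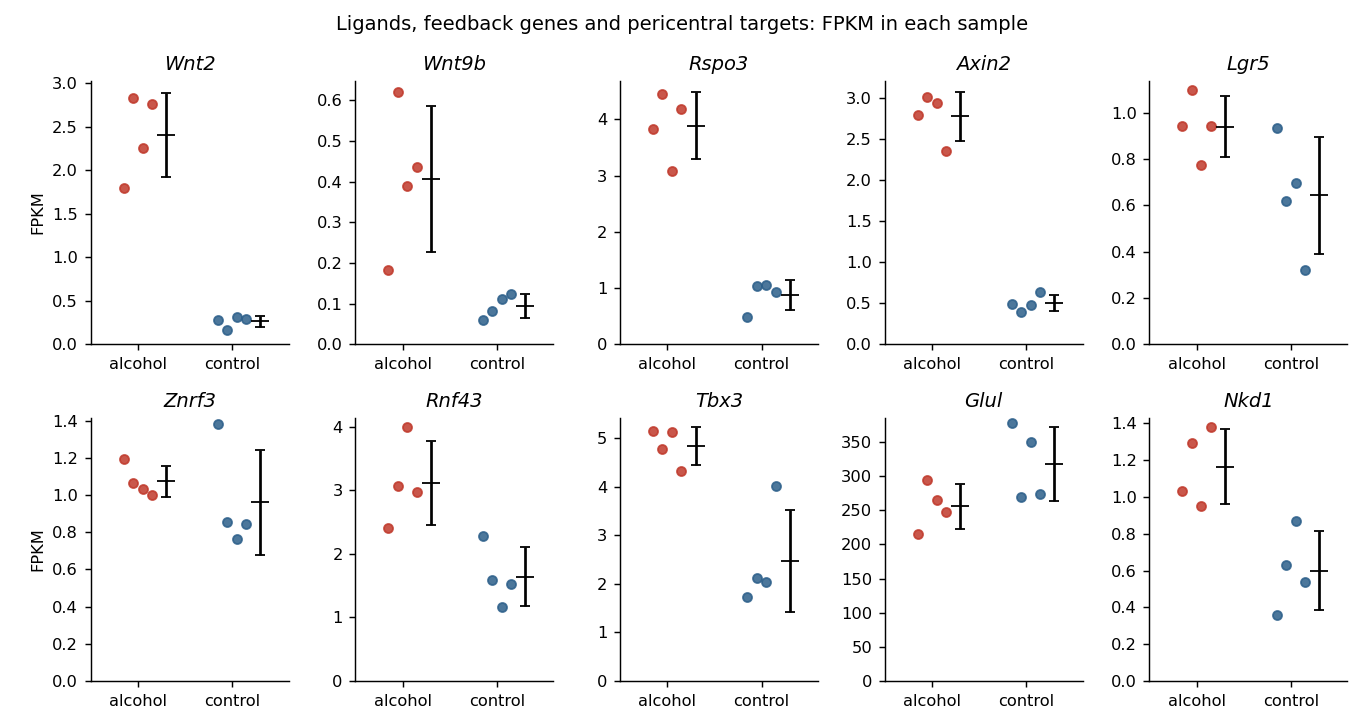
FPKM of the 10 genes in each sample (points), with the mean and SD of each group of 4 (bar) and alcohol left of control. The groups do not overlap for Wnt2, Wnt9b, Rspo3, Axin2, Rnf43, Tbx3 and Nkd1, and they overlap for Lgr5, Znrf3 and Glul.

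Endothelial marker transcripts were higher with alcohol, as the ligands were. All 15 tested endothelial markers were higher with alcohol (13 to 15 over the other scalings), beside 44.2% over all genes. Kdr, Lyve1, Tek and Ptprb averaged under 1 FPKM in controls and reached the minimum only through the alcohol samples. The 16 listed markers summed to 116 to 145 FPKM in alcohol samples and 30.5 to 47.7 FPKM in controls. None of these markers was at 0, and the most abundant were the sinusoidal lectin Clec4g and the TGF-beta co-receptor Eng. The 6 markers of central vein endothelium, led by Thbd, summed to 6.41 to 8.04 FPKM in alcohol samples and 1.75 to 2.55 FPKM in controls. Their part in the rise of Wnt2, Wnt9b and Rspo3 was not tested beyond the ratios that follow. In bulk samples more cells of a type and more RNA per cell cannot be told apart.

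Set against the endothelial sum, Wnt2 was higher in every alcohol sample. Wnt2 amounted to 15.5 to 19.8 FPKM per 1000 FPKM of endothelial markers in alcohol samples and 4.68 to 9.13 in controls, and these ranges do not overlap. Rspo3 amounted to 22.6 to 32.9 with alcohol and 15.7 to 29.0 in controls, and Wnt9b to 1.57 to 4.27 with alcohol and 1.97 to 2.59 in controls, and both pairs of ranges overlap. These ratios were chosen after the values were seen and carry no test. They also depend on the markers taken, which rose unevenly. Alcohol over control, mean FPKM had a ratio of 3.18 for Clec4g and 2.53 for Eng, which lead the sum. Over the 16 markers that ratio ran from 1.72 (Stab2) to 21.5 (Lyve1). Over the 6 central vein markers it ran from 1.88 (Selp) to 9.52 (Thbd), with Kit next highest at 4.31, beside 9.17 for Wnt2. Stellate markers, the other source of Rspo3, summed to 182 to 254 FPKM in alcohol samples and 77.3 to 140.3 FPKM in controls. Of 11 tested 7 were higher and 2 lower (Col3a1 and Acta2), beside 44.2% higher and 13% lower over all genes. The sum is led by Dcn and Ecm1, both higher. The part of stellate markers in the rise of Rspo3 was not tested.

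**Figure D2:**
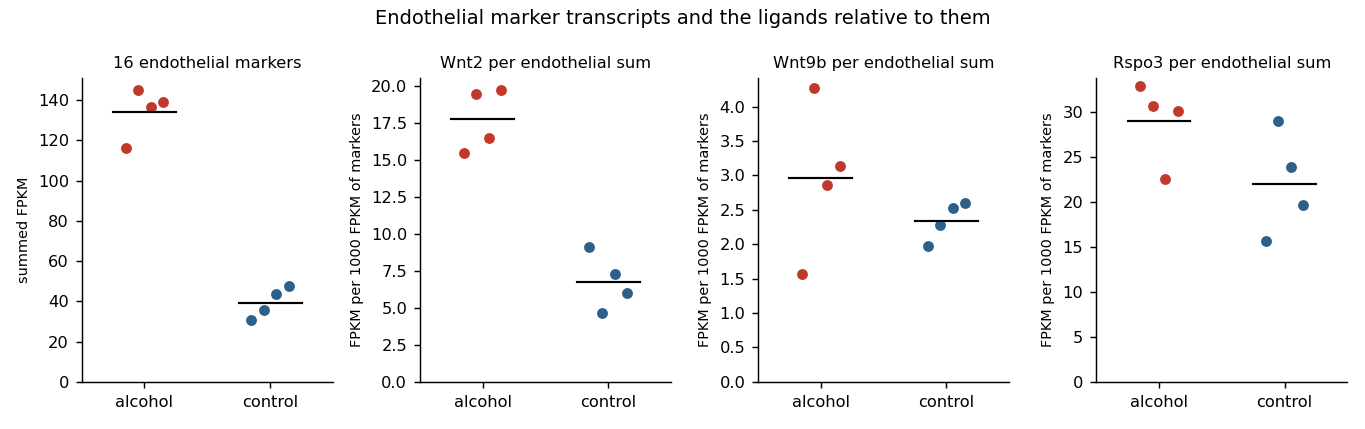
Summed FPKM of 16 endothelial markers (left) and FPKM of each ligand per 1000 FPKM of those markers, per sample, with group means as lines. The marker sum and the Wnt2 ratio separate the groups, while the ratios of Wnt9b and Rspo3 overlap.

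Axin2, the scaffold of the complex that destroys beta-catenin and a broad readout of the pathway, had the largest change among the targets in the set of 10. It stood at 2.80, 3.02, 2.94 and 2.36 FPKM in alcohol samples, against 0.496, 0.399, 0.476 and 0.642 FPKM in controls. Its lowest alcohol value was several times its highest control value. The log2 change was 1.33 ± 0.09 (SE, limma adjusted p = 2.89e-06), a ratio of 5.53. Axin2 is not restricted to hepatocytes, so its source in the tissue cannot be told from these libraries. The part of the higher endothelial marker transcripts in the change of Axin2 was not tested.

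Rnf43, the membrane ligase that clears Frizzled, averaged 3.11 ± 0.662 FPKM with alcohol and 1.64 ± 0.468 FPKM in controls (SD, n = 4 each), a log2 change of 0.64 ± 0.15 (SE, limma adjusted p = 0.00387). Its samples read 2.40, 3.07, 4.00 and 2.97 FPKM with alcohol and 2.29, 1.59, 1.17 and 1.52 FPKM in controls, so alcohol replicate 1 lay just above control replicate 1. Znrf3, its close homologue, averaged 1.07 ± 0.0841 FPKM with alcohol and 0.961 ± 0.283 FPKM in controls and did not pass (log2 change 0.090, 95% interval -0.15 to 0.33, limma adjusted p = 0.489). Control replicate 1 was the highest of all 8 samples for Znrf3, at 1.38 FPKM. The sign of the Znrf3 change turned with median-of-ratios scaling (-0.058) and with quantile normalization (-0.23).

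Lgr5, the R-spondin receptor of pericentral hepatocytes, averaged 0.939 ± 0.132 FPKM with alcohol and 0.642 ± 0.253 FPKM in controls, with 51 to 192 reads per library over all samples. The groups overlapped and the change did not pass (log2 change 0.25, 95% interval -0.026 to 0.53, limma adjusted p = 0.162). Nkd1, which binds Dishevelled and damps the signal, stood at 1.03, 1.30, 0.949 and 1.38 FPKM with alcohol and 0.360, 0.632, 0.871 and 0.535 FPKM in controls. Its groups did not overlap, but the margin was narrow and its call was fragile. The log2 change was 0.44 ± 0.12 (SE, limma adjusted p = 0.0226). It was lost without alcohol replicate 2 (adjusted p = 0.0599) or 4 (0.0608), without control replicate 2 (0.0503) or 4 (0.0611), with replicates 2 and 4 of the alcohol group averaged (0.0573), and with median-of-ratios scaling (0.116) or quantile normalization (0.302).

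Tbx3, a transcription factor downstream of beta-catenin in hepatocytes, averaged 4.84 ± 0.388 FPKM with alcohol and 2.47 ± 1.05 FPKM in controls, a log2 change of 0.79 ± 0.17 (SE, limma adjusted p = 0.0026). Its alcohol samples read 5.15, 4.77, 5.13 and 4.32 FPKM, against 1.72, 2.11, 2.03 and 4.02 FPKM in controls, where replicate 4 stood near the alcohol samples. Without control replicate 4 the log2 change was 0.98. With quantile normalization Rnf43 and Tbx3 kept their sign but did not pass (limma adjusted p = 0.0773 and 0.0637).

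Glul, which takes up ammonia into glutamine in the last row of hepatocytes, did not follow. It stood at 215, 294, 265 and 248 FPKM in alcohol samples, against 377, 270, 350 and 274 FPKM in controls. The groups overlapped, and the mean was 256 ± 33.1 FPKM with alcohol and 318 ± 54.3 FPKM in controls (SD, n = 4 each). Its log2 change of -0.31 did not pass (95% interval -0.64 to 0.025, limma adjusted p = 0.102). The interval leaves no room for a rise of the size seen in Axin2. Glul was lower past the threshold with median-of-ratios scaling, with a log2 change of -0.61 (limma adjusted p = 0.0062), and its change was negative under every alternative run.

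**Figure D3:**
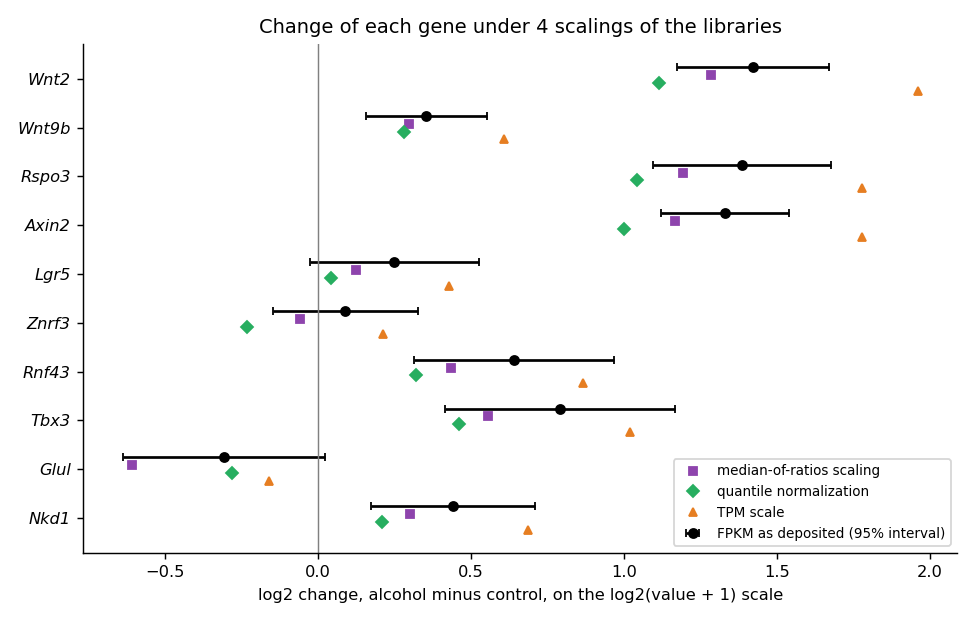
Log2 change of each gene, alcohol minus control, with the deposited FPKM (black, 95% interval) and with 3 other scalings of the libraries (coloured, no interval shown). Wnt2, Rspo3 and Axin2 lie at 1.00 or above under each scaling, Znrf3 changes sign and Glul stays below 0.

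Whether ligands and targets changed by the same amount was tested within samples, where the scaling of a library largely cancels. In each sample log2(FPKM + 0.1) of a ligand was subtracted from that of a target, for 6 pairs, with exact 2-sided permutation tests and Benjamini-Hochberg adjustment over the 6. Glul relative to Wnt2 fell by 3.10 on the log2 scale, to 6.68 ± 0.18 in alcohol samples, against 9.78 ± 0.24 in controls (SD, n = 4 each, exact adjusted p = 0.0429, lower in 4 of 4 alcohol samples). Glul relative to Rspo3 fell by 2.38, with 6.01 ± 0.27 in alcohol samples and 8.39 ± 0.66 in controls, and Glul relative to Wnt9b fell by 1.63, with 9.05 ± 0.39 in alcohol samples and 10.67 ± 0.40 in controls, both at the same exact adjusted p. So Glul and each ligand moved by different amounts. The sizes depend on the constant added: with 1 FPKM in place of 0.1, the differences were -1.73 for Wnt2, -1.69 for Rspo3 and -0.66 for Wnt9b, at the same exact adjusted p.

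Axin2 relative to Rspo3 showed no difference beyond the spread, at -0.46 ± 0.31 in alcohol samples and -0.65 ± 0.55 in controls (difference 0.19, exact adjusted p = 0.571). Axin2 relative to Wnt2 was 0.22 ± 0.36 with alcohol and 0.74 ± 0.22 in controls, a difference of -0.52 that did not pass (exact adjusted p = 0.0686). It passed without alcohol replicate 1, at -0.66 (0.0343), and was -0.093 with 1 FPKM added (0.686). Axin2 relative to Wnt9b was 2.58 ± 0.57 with alcohol and 1.63 ± 0.22 in controls, a rise of 0.94 (exact adjusted p = 0.0429), although control levels of Wnt9b were about the size of the 0.1 FPKM added, which shrinks its change. Without any 1 control the Axin2 and Wnt9b pair did not pass (exact adjusted p = 0.0857 to 0.129). The 3 Glul pairs then had an exact adjusted p of 0.0571, the smallest that 3 pairs of the 6 can share, with groups that still did not overlap.

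**Figure D4:**
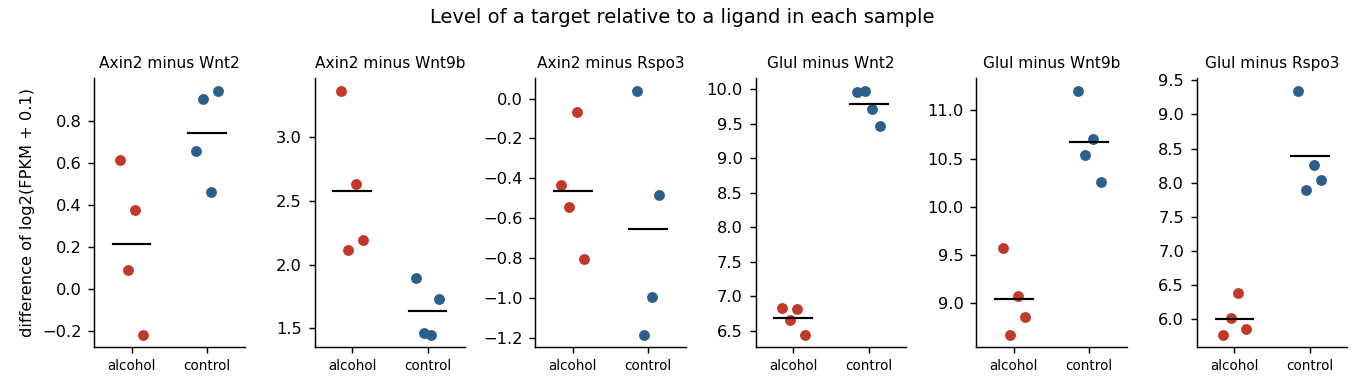
Log2(FPKM + 0.1) of Axin2 or Glul minus that of Wnt2, Wnt9b or Rspo3 in each sample, with group means as lines and axes that do not start at 0. Alcohol samples lie below all controls in the 3 Glul panels and above them for Axin2 minus Wnt9b. They overlap the controls for Axin2 minus Wnt2 and Axin2 minus Rspo3.

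The order of the levels per gene length also shifted. With alcohol Glul was followed by Tbx3, Rspo3, Rnf43, Axin2, Wnt2, Nkd1, Znrf3, Lgr5 and Wnt9b, and in controls by Tbx3, Rnf43, Znrf3, Rspo3, Lgr5, Nkd1, Axin2, Wnt2 and Wnt9b. Sample ranges of neighbours overlapped, with these exceptions. In alcohol samples Glul stood above Tbx3, Wnt2 above Nkd1 and Lgr5 above Wnt9b, and in controls Glul stood above Tbx3, Axin2 above Wnt2 and Wnt2 above Wnt9b. By the mean absolute difference between standardized log2 profiles over the 8 samples, the tested genes closest to Axin2 were Thbd (0.043 SD), Kctd15 (0.0703 SD) and Ptprb (0.0789 SD). Those closest to Rspo3 were Tubb2a (0.0606 SD), Tpm4 (0.0721 SD) and Cyp2c55 (0.0789 SD). Thbd and Ptprb are in the lists of endothelial markers, and most of the likeness over these samples is the difference between the groups.

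Most of the other Wnt ligands were scarce. Of the 14 other Wnt and R-spondin genes with values, 1 reached a mean of 1 FPKM, Wnt5b, which acts mainly outside the beta-catenin route. It averaged 3.54 ± 1.14 FPKM with alcohol and 2.15 ± 0.467 FPKM in controls (limma adjusted p = 0.025), a call lost without alcohol replicate 1 or without control replicate 2, 3 or 4 (adjusted p = 0.0504 to 0.0742), with median-of-ratios scaling (0.15), quantile normalization (0.351) or no minimum (0.0769). Porcn, which adds the lipid that Wnt proteins need for secretion, stood at 1.15 ± 0.19 FPKM with alcohol and 0.982 ± 0.142 FPKM in controls and did not pass (limma adjusted p = 0.319), its sign turning with median-of-ratios scaling and quantile normalization. Picked after their values were seen, Wls, the other listed secretion gene, and Wnt5a lay under the minimum. In the fit of all genes, where 24.2% were higher, both were higher. Wls averaged 0.933 FPKM with alcohol and 0.509 FPKM in controls (limma adjusted p = 0.0212). Wnt5a averaged 0.141 FPKM with alcohol and 0.0332 FPKM in controls (limma adjusted p = 0.000519).

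Receptors moved in both directions. Of 8 tested receptor genes 5 were higher and 2 lower (3 to 5 and 1 to 3 over the other scalings), beside 44.2% higher and 13% lower over all genes, with a median log2 change of 0.40 beside 0.24. The co-receptor Lrp5 rose to 14.1 ± 1.75 FPKM with alcohol, against 5.81 ± 1.37 FPKM in controls (log2 change 1.16, limma adjusted p = 8.48e-05), and Lrp6 to 7.48 ± 1.41 FPKM with alcohol, against 3.86 ± 0.84 FPKM in controls (0.80). Lgr4, the R-spondin receptor found throughout the lobule, fell to 4.30 ± 0.544 FPKM with alcohol, against 9.48 ± 2.58 FPKM in controls (-0.96, limma adjusted p = 0.000506). So among the R-spondin receptors Lgr4 fell while Rspo3 rose. Without alcohol replicate 1 the count of lower receptors was 1, and Lgr4 was still lower (limma adjusted p = 0.00167).

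Inside the cell, 9 of 11 tested genes of the destruction complex and its transducers were higher and none lower (7 to 9 and 0 to 1 over the other scalings), beside 44.2% higher and 13% lower over all genes, with a median of 0.66 beside 0.24. Tnks, among the 9, averaged 0.48 FPKM in controls and reached the minimum only through the alcohol samples, which favours a higher call. The casein kinase Csnk1a1 (log2 change 0.82), the scaffold Axin1 (0.82) and the ubiquitin ligase subunit Fbxw11 (0.91) had the smallest p. Of 6 tested nuclear partners 3 were higher and none lower (1 to 3 and 0 to 2 over the other scalings), a share near the 44.2% over all genes, led by the corepressor Tle3 (1.01, limma adjusted p = 0.000464). The calls for the coactivators Pygo2 (0.35, limma adjusted p = 0.0278) and Bcl9l (0.47, 0.0492) did not hold with median-of-ratios scaling, quantile normalization or no minimum, nor when certain single libraries were left out. They were lost without alcohol replicate 1 or control replicate 3 for both, without alcohol replicate 2 or 4 for Pygo2, and without alcohol replicate 3 or control replicate 2 or 4 for Bcl9l, and 1 gene of the list stayed higher without alcohol replicate 1 or control replicate 3. Tcf7, a TCF factor that is itself a target, lay under the minimum and was picked after its values were seen. It stood at 1.02 to 1.08 FPKM with alcohol and 0.270 to 0.372 FPKM in controls (limma adjusted p = 0.000129 in the fit of all genes).

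Of 2 tested secreted or feedback inhibitors 1 was higher, a share near the 44.2% over all genes. Notum, a secreted lipase that inactivates Wnt proteins and marks pericentral hepatocytes, rose to 12.8 ± 0.708 FPKM with alcohol, against 6.51 ± 0.797 FPKM in controls (log2 change 0.88, limma adjusted p = 6.23e-05). Kremen1, a Dickkopf receptor, stood at 2.33 ± 0.402 FPKM with alcohol and 1.71 ± 0.462 FPKM in controls and did not pass (limma adjusted p = 0.0742), but passed without control replicate 1 (0.0225), and its sign turned with quantile normalization. Of 3 tested general targets of beta-catenin 2 were higher, beside 44.2% over all genes, and Tnfrsf19 reached the minimum only through the alcohol samples. Tnfrsf19 rose to 6.09 ± 0.384 FPKM with alcohol, against 0.969 ± 0.26 FPKM in controls (log2 change 1.86), and Myc to 34.3 ± 17.9 FPKM with alcohol, against 7.20 ± 6.37 FPKM in controls (2.38, limma adjusted p = 0.00353), both of which answer to many other signals.

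Other pericentral hepatocyte genes moved in both directions. Of 20 tested 12 were higher and 5 lower (7 to 12 and 2 to 7 over the other scalings), beside 44.2% higher and 13% lower over all genes, with a median of 0.58 beside 0.24. Nt5e, Slc1a4 and Slc22a3, all called higher, averaged under 1 FPKM in controls and reached the minimum only through the alcohol samples. The count and median therefore lean towards higher values. The ectonucleotidase Nt5e rose to 4.43 ± 0.16 FPKM with alcohol, against 0.361 ± 0.0333 FPKM in controls, and the vasopressin receptor Avpr1a to 33.6 ± 1.64 FPKM with alcohol, against 3.96 ± 1.11 FPKM in controls. Regucalcin, Rgn, fell to 239 ± 16.8 FPKM with alcohol, against 808 ± 98.0 FPKM in controls (log2 change -1.75, limma adjusted p = 2.92e-06). Picked after their values were seen, the ornithine aminotransferase Oat, which shares the innermost zone with Glul, fell to 229 ± 23.5 FPKM with alcohol, against 386 ± 44.6 FPKM in controls (-0.75, limma adjusted p = 0.000678). The glutamate carrier Slc1a2 and the ammonium carrier Rhbg, of the same zone, rose (0.57 and 1.09, limma adjusted p = 0.00582 and 0.00243). The count of lower genes was 3 without alcohol replicate 1 or control replicate 3.

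Periportal hepatocyte genes, which Wnt signals hold down, also moved in both directions. Of 18 tested 7 were lower and 5 higher, beside 13% lower and 44.2% higher over all genes, with a median of -0.32. The balance depended on the scaling, with 10 lower and 0 higher by median-of-ratios, 6 and 2 by quantile normalization, and 4 lower and 5 higher on the TPM scale. The gluconeogenic enzyme Pck1 fell (log2 change -1.69), as did the cytochrome Cyp2f2 to 315 ± 60.6 FPKM with alcohol, against 599 ± 84.2 FPKM in controls (-0.93, limma adjusted p = 0.0008), and the adhesion protein Cdh1 (-0.59). The count of higher genes ranged from 0 to 4 when any 1 library was left out, being 4 without control replicate 1 and 3 or fewer without any of the others. Hepatocyte markers as a whole summed to 51346 to 60327 FPKM with alcohol and 57247 to 64680 FPKM in controls. Of 7 tested 2 were lower and none higher, beside 13% lower and 44.2% higher over all genes. Kupffer cell markers summed to 23.4 to 45.5 FPKM with alcohol and 18.8 to 70.8 FPKM in controls, with none of 4 past the limma threshold, adjusted or not.

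**Figure D5:**
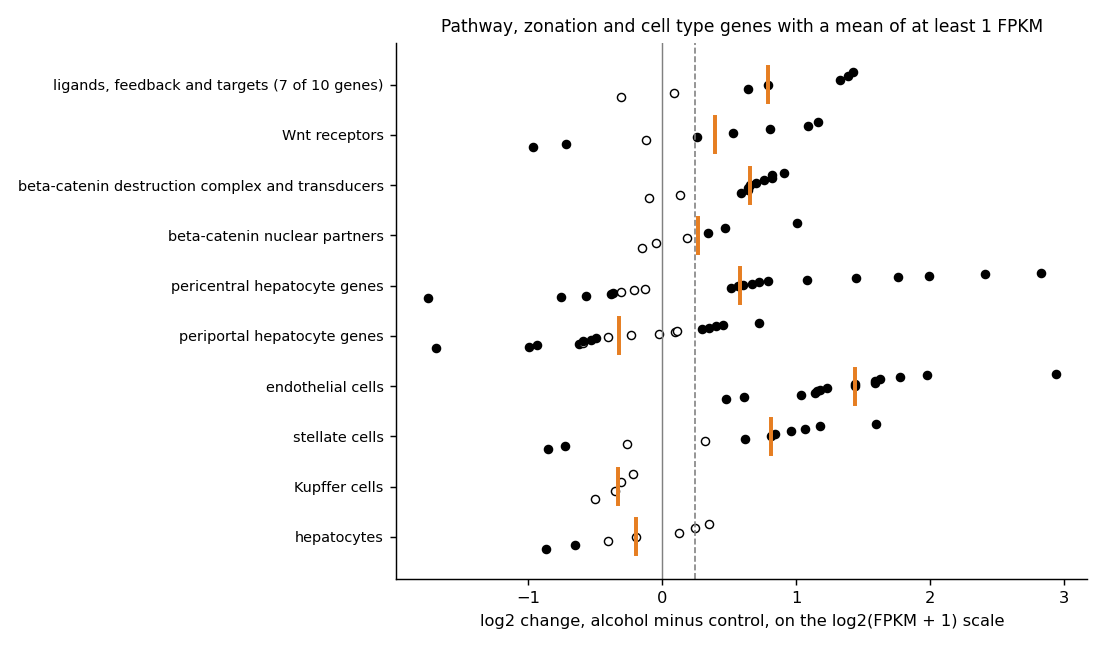
Log2 change, alcohol minus control, of each gene that averaged 1 FPKM or more in 10 lists (filled: past the limma threshold; open: not), with list medians in orange and the median over all genes, 0.24, dashed. Endothelial markers lie to the right of 0, and the pericentral list spans -1.75 to 2.83.

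On GRCm38 in GENCODE M21 all 10 genes are protein-coding. Wnt2 lies on chromosome 6 from 17988940 to 18030585, Rspo3 on chromosome 10 from 29452416 to 29535867 and Wnt9b on chromosome 11 from 103727364 to 103749821, all on the minus strand. Axin2 lies on chromosome 11 from 108920349 to 108950783 and Glul on chromosome 1 from 153899944 to 153909723, both on the plus strand. Exons of Rspo3, Axin2, Tbx3 and Glul overlap a gene on the other strand (Gm48159, Gm11670, Tbx3os1 and Teddm2), and those of Glul also hold Mir8114, so a part of their reads is uncertain because the use of strand is not given in the sources used here.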

How the data were processed

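RNA was sequenced in 8 samples, grouped by their titles. The authors deposited FPKM values, 1 column per sample, per the labels, for 21049 gene symbols. mRNA libraries came from a SMARTER kit, per the labels' protocols, and the submitters' processing notes name the builds GRCm38 and mm10. Aligner, counter, annotation and use of strand: not given in the sources used here. Because FPKM scales each library to its own total, abundant transcripts that change shift the rest.

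The limma package, version 3.58.1 (R 4.3.3), was run on log2(FPKM + 1), with a group term, moderated variances with a trend and 2-sided Benjamini-Hochberg adjusted p-values over all genes tested, at a threshold of 0.05. Genes under a mean of 1 FPKM were read from the same fit without that minimum. The fit was tested on simulated data. For the pathway lists and the hepatocyte and Kupffer cell markers, a count of none was also none at an unadjusted p under 0.05. Whole reads were recovered for 20936 genes (99.46%), to a tolerance of 1e-06 of a read, as the smallest gene length that made all 8 values whole; 99.66% to 99.86% of each library total lay in these genes. They served for depth and for an added voom fit, chosen after seeing the data.

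The 10 genes and all lists were chosen with earlier results of these data known. Named genes are the 10, up to 3 called genes per list by smallest p (the 2 most abundant where fewer than 2 passed), and the 3 closest profiles to Rspo3 and Axin2; others are said to be picked after their values were seen. Alternatives were other pseudocounts (0.1 and 0.5), minimums (0.3 FPKM and none), scalings (median-of-ratios, quantile, TPM), no variance trend, each replicate left out, alcohol replicates 2 and 4 averaged, and a replicate block.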

Additional observations from a re-analysis of the deposited data

Results flagged for a closer look

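Of 74 groups of 4 samples examined, 5 held a sample far from the other 3, and chance alone sets apart about 1 in 20. For Znrf3 control replicate 1 stood at 1.38 FPKM, against 0.764 to 0.855 FPKM in the other controls. For Tbx3 control replicate 4 stood at 4.02 FPKM, against 1.72 to 2.11 FPKM. For Lrp6 control replicate 1 stood at 5.12 FPKM, against 3.36 to 3.50 FPKM. For Kremen1 alcohol replicate 3 stood at 2.93 FPKM, against 2.08 to 2.22 FPKM in the other alcohol samples. For Tubb2a, named for its likeness to Rspo3, control replicate 1 stood at 6.39 FPKM, against 9.20 to 9.59 FPKM. Control replicate 1 accounts for 3 of the 5.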

How the results depend on the processing

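Wnt2, Wnt9b, Rspo3 and Axin2 stayed higher past the threshold in all 19 alternatives, with limma adjusted p of at most 0.000191, 0.0484, 0.00048 and 0.000116. With median-of-ratios scaling 2386 genes were higher and 2446 lower, Glul was the 1 lower gene of the 10, and the changes of Znrf3 (-0.058) and Porcn (-0.039) turned negative. With quantile normalization 2221 genes were higher and 2307 lower, 4 of the 10 genes were higher, and Znrf3 (-0.23), Porcn (-0.20) and Kremen1 (-0.010) turned negative. Both scalings centre the samples by construction. Leaving out 1 replicate gave 6 to 7 of the 10 higher, beside 3537 to 4362 of all 9228 genes tested. The 10 include the 3 genes under the minimum, read from the fit of all genes. With 1 FPKM added, Axin2 relative to Rspo3 turned to -0.057 (exact adjusted p = 0.743), and the differences were smaller in size for Axin2 relative to Wnt2 (-0.093) and for Glul relative to Wnt2 (-1.73), Wnt9b (-0.66) and Rspo3 (-1.69). With 1 replicate left out, the differences ranged from -0.66 to -0.38 for Axin2 relative to Wnt2, 0.68 to 1.10 for Axin2 relative to Wnt9b, 0.016 to 0.42 for Axin2 relative to Rspo3, -3.20 to -3.01 for Glul relative to Wnt2, -1.80 to -1.45 for Glul relative to Wnt9b and -2.54 to -2.06 for Glul relative to Rspo3.

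Same-numbered samples deviated together with correlations of 0.35, 0.22, 0.071 and 0.28, and 4 of 8 samples correlated best with their own number. These values do not settle whether same-numbered samples are related. The main fit took the samples as unpaired, and results with the number as a block or pair follow. With the replicate block 6 of the 10 genes were higher, beside 4307 of all 9228 genes tested, and Nkd1 was lost (limma adjusted p = 0.0506). As pairs, the differences of 0.94 (Axin2 and Wnt9b), -3.10 (Glul and Wnt2), -1.63 (Glul and Wnt9b) and -2.38 (Glul and Rspo3) had an exact adjusted p of 0.15, since sign flips of 4 pairs cannot go below 0.125. Depth limits Wnt9b and Wnt2 most, with as few as 12 and 13 reads in a library. That limit covers counting error only.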
